A study of Homo sapiens with 4 samples.

Results

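The comparison described here is the response of HCC1937 cells carrying an empty vector to OTX-015, set against the same cells under the solvent DMSO. HCC1937 is an established human breast cancer line without functional BRCA1, and the labels give the vector cells the genotype BRCA1 -/-. A second line of the series carries wild-type BRCA1 (wtBRCA1) and is labelled wild type, and it was treated with the same agents. Each of the 4 groups has 1 library, so there was no replicate and no test, and every value below describes these libraries only. The dose of OTX-015, the length of treatment and whether either line is 1 clone are not given in the sources used here. The members are the 11376 genes, of 60487 listed in each file, with at least 5 FPKM (fragments per kilobase of transcript, scaled to the mapped fragments of the library) in at least 1 of the 2 vector libraries. Of these, 9277 reached 5 FPKM in both vector libraries, 996 under DMSO only and 1103 under OTX-015 only. At the edge of this rule, TMTC4 was just inside, with 5.0 FPKM (DMSO) and 1.09 FPKM (OTX-015), and IER5L was just outside, with 4.20 and 5.0 FPKM. The same rule would keep 11568 genes in the wtBRCA1 pair and 12650 over all 4 libraries.

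OTX-015, also named birabresib, is an inhibitor of the BET proteins, a family that includes BRD2 and BRD3. These proteins bind acetylated lysines on histone tails through paired bromodomains and help to recruit P-TEFb, the kinase CDK9 with a T-type cyclin, which releases paused RNA polymerase II into elongation. Much of the cell's P-TEFb is held inactive in a complex of the 7SK RNA with HEXIM1, LARP7 and MEPCE. BET inhibitors are known for lowering MYC transcripts in some cancers, and a higher level of HEXIM1 is used as a marker that such a drug has acted.

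Levels are given as FPKM under DMSO and then under OTX-015. A difference is the log2(FPKM + 1) value under OTX-015 minus that under DMSO, a scale that understates the change of low genes. Genes are called higher or lower where it was at least 1 or at most -1. For other genes only the values are given. Overlapping genes share 1 locus in the files, so reads may have been divided between them. This touched 5612 of the 11376 genes, of which 14.7% were higher and 11.9% lower, against 15% and 12.5% of the 5764 others. Among the genes described below, those in a locus with a gene at a higher level are AFF1, AKR1C2, BAD, BRD2, BRD3, CALR, CCNA2, CCND1, CCNE2, CCNK, CD68, CKLF-CMTM1, CRIP1, CTGF, DDIT3, DNAJB1, ELL, ELL2, ETV4, FADS1, FAS, FOXM1, FTH1, FTL, GPN2, H2AFX, HEXIM1, HEXIM2, HIST1H2AC, HSPE1, IFIT1, KRT18, LARP7, LGALS9, LSM3, LSM7, MAX, MCL1, MCOLN1, MDM2, MT1X, NME3, PNPLA2, POLR2L, PSMB8, SAT2, SLC1A5, SNHG3, SOD2, TM7SF2 and YAP1, and their values are the less certain for it.

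Of the 11376 genes, 1690 were higher under OTX-015 (14.9%) and 1390 were lower (12.2%), while 8296 (72.9%) were within 1 log2. Past 2 log2 there were 284 higher and 336 lower genes, and past 3 log2 there were 64 and 103. The median difference was 0.10, with a lower quartile of -0.50 and an upper quartile of 0.68. The DMSO library listed 51 of the genes at 0, 7 of them protein-coding, and the OTX-015 library 107, 14 of them protein-coding. The plot of levels in both libraries shows this spread at all levels, with the sharp lower edge set by the 5 FPKM rule.

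**Figure D1:**
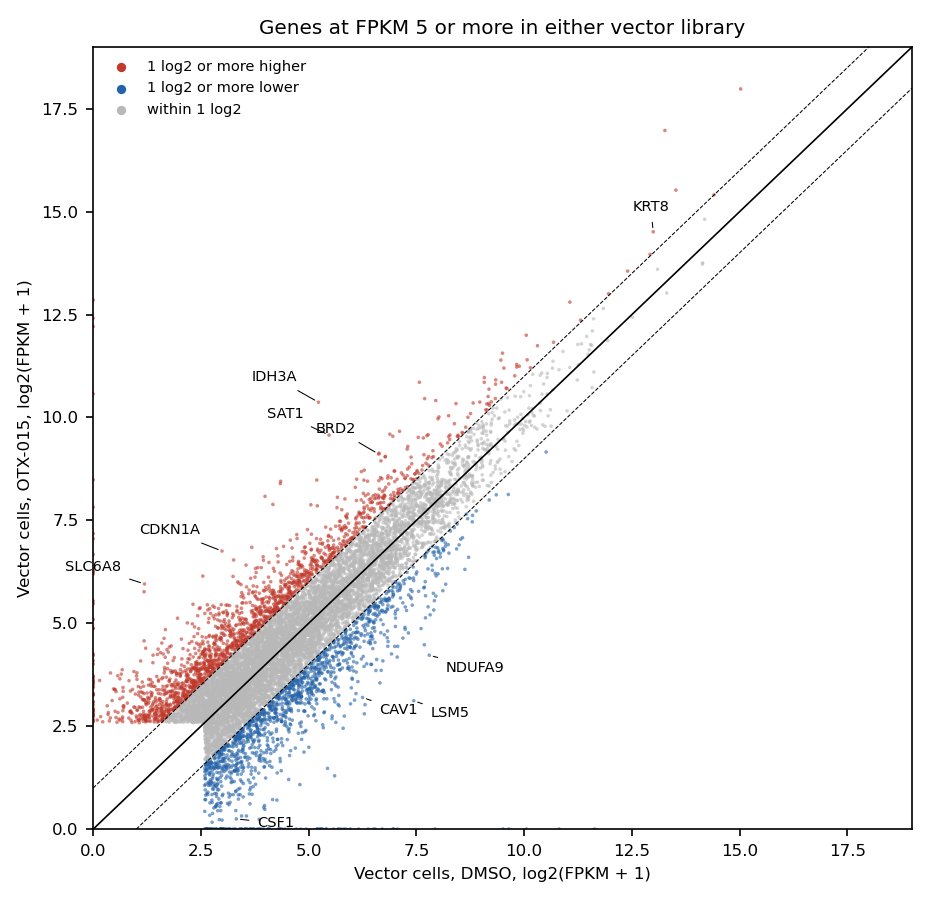
Level of each of the 11376 genes in vector cells under DMSO (x axis) and OTX-015 (y axis), both as log2(FPKM + 1) from 1 library each. The solid line marks equal levels and the dashed lines a difference of 1 log2 either way. The 1690 red genes lie above the upper dashed line and the 1390 blue genes below the lower one, and genes listed at 0 in 1 library sit on an axis.

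The scale of the libraries bears on these counts. FPKM values summed to 909314 in the DMSO library and 1496107 in the OTX-015 library, where the 10 highest genes held 17.4% and 39.2%. One clone-named entry in the locus of the ferritin light chain gene FTL, AC026803.1, stood at 33305 and 258769 FPKM, or 3.66% and 17.3% of the sum. Of the 10 highest genes, 8 under DMSO and 9 under OTX-015 were clone-named entries of this kind, several of them inside the loci of GAPDH, TUBA1B, KRT7, APLP2 or CTPS1. When both libraries were scaled to the same sum, the median of all genes moved to -0.58 and the counts to 535 higher and 3574 lower, so that 13% of called genes were higher in place of 54.9%. With the 10 highest genes of each library left out of that sum, the median was -0.17, with 1077 higher and 2002 lower genes, 35.0% of them higher. Median-of-ratios scaling gave a median of 0.00, with 1444 higher and 1572 lower genes, 47.9% of them higher. Quantile normalization gave a median of 0.02, with 1506 higher and 1513 lower genes, 49.9% of them higher. The medians of lists below are therefore set beside the median of all genes. Differences and calls of single genes are on the FPKM as given, without such a correction.

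The libraries held the markers of epithelium. All 8 epithelial markers examined were above 0 in both libraries, summing to 11305 and 26729 FPKM, most of it from KRT8. Markers of other cell types were low, with 2.31 and 4.14 FPKM summed over 8 fibroblast markers and 7.97 and 4.18 over 6 endothelial markers. Of 9 immune markers, summed at 16.2 and 24.8 FPKM, the DMSO library listed 5 at 0 and the OTX-015 library 8, and CD68 gave 15.5 and 24.8 of those sums. BRCA1 (ENSG00000012048, chromosome 17, 43044295 to 43170245, hg38) had 37.2 and 40.8 FPKM in the vector libraries, against 171 and 2712 FPKM in the wtBRCA1 libraries. A level of the gene's RNA does not show whether a mutated transcript encodes a working protein. As RNA was taken from whole cultures, a change in the number of cells of a state and a change in RNA per cell cannot be told apart.

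The highest protein-coding genes included enzymes, transporters, a CDK inhibitor and a histone. IDH3A, a subunit of the mitochondrial isocitrate dehydrogenase of the citric acid cycle, was at 36.4 and 1323 FPKM (difference 5.15). Its locus in the files also holds ACSBG1. SLC6A8, the creatine transporter (ENSG00000130821, chromosome X, 153688099 to 153696593), was at 1.28 and 61.1 FPKM (difference 4.77). SAT1, the spermidine and spermine acetyltransferase that starts polyamine breakdown (ENSG00000130066, chromosome X, 23783173 to 23786226), was at 43.4 and 760 FPKM (difference 4.10). SLC6A8 and SAT1 share their locus with no other gene kept.

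CDKN1A, which encodes the CDK inhibitor p21 (ENSG00000124762, chromosome 6, 36676460 to 36687339), was at 6.93 and 107 FPKM (difference 3.77). TM7SF2, a sterol reductase of cholesterol synthesis, was at 14.8 and 270.2 FPKM (difference 4.10), in a locus with 4 other genes kept, of which AP003068.9 reached 354 FPKM. DGAT1, which makes triglyceride from diacylglycerol, was at 189 and 1852 FPKM (difference 3.29), in a locus shared with HSF1. CLU, the secreted chaperone clusterin, was at 35.4 and 356 FPKM (difference 3.29). GCH1, the first enzyme of tetrahydrobiopterin synthesis, was at 2.88 and 33.8 FPKM (difference 3.17). MDC1, a scaffold protein of the response to DNA breaks, was at 8.57 and 91.9 FPKM (difference 3.28), in a locus shared with its antisense gene.

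Of the other genes at this end, HES6, a transcription factor of the hairy and enhancer of split family, was at 0.320 and 12.9 FPKM (difference 3.39). TAX1BP3, a small PDZ protein, was at 17.0 and 236 FPKM (difference 3.72) and shares its locus with a read-through gene. SEMA6C, a semaphorin, was at 0.108 and 11.2 FPKM (difference 3.46). The last of the 16 genes taken at this end were ZNF33B (difference 3.39), TMEM182 (difference 3.18), HIST1H2BD, which is described with the histones, and GTF2H2. GTF2H2, a subunit of the transcription and repair factor TFIIH, was at 1.27 and 53.4 FPKM (difference 4.59), but it has near-identical copies on chromosome 5, so its value is uncertain. MMP1, the interstitial collagenase, was listed at 0 under DMSO and at 6.29 FPKM under OTX-015.

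The lowest protein-coding genes were led by LSM5, a member of the LSM ring that binds U6 RNA and decaying messenger RNA (ENSG00000106355, chromosome 7, 32485332 to 32495283). It was at 172 and 7.68 FPKM (difference -4.32). CAPN8, a calpain protease, was at 26.8 and 1.12 FPKM (difference -3.71). NDUFA9, a subunit of respiratory complex I, was at 222 and 17.7 FPKM (difference -3.57). PLAC8 was at 77.3 and 5.97 FPKM (difference -3.49). PADI1, which turns peptidyl arginine into citrulline in epidermis, was at 14.8 and 0.394 FPKM (difference -3.50).

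CAV1, the coat protein of caveolae (ENSG00000105974, chromosome 7, 116524785 to 116561184), was at 75.1 and 8.17 FPKM (difference -3.05). CSF1, the growth factor of macrophages, was at 8.99 and 0.187 FPKM (difference -3.07). LY6D, a surface protein of squamous epithelium, was at 78.2 and 7.13 FPKM (difference -3.28). IFI44, an interferon-stimulated gene, was at 31.1 and 2.97 FPKM (difference -3.01). FYB, an adaptor protein best known from T cells, was at 16.9 and 0.643 FPKM (difference -3.45). NUP37 of the nuclear pore was at 99.6 and 10.7 FPKM (difference -3.10), and MRPS24 of the mitochondrial ribosome was at 204 and 21.3 FPKM (difference -3.20). The remaining genes at this end were FGD3 (difference -3.56), the DNA repair enzyme ALKBH3 (difference -3.08), GNG10 (difference -3.02) and NME3 (difference -3.02). TM4SF18 (19 FPKM under DMSO), PPP1R1C (16.2 FPKM), MT1X (11.9 FPKM), MT1E (9.90 FPKM), CRIP1 (7.48 FPKM) and SULT1A1 (7.12 FPKM) were listed at 0 under OTX-015.

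**Figure D2:**
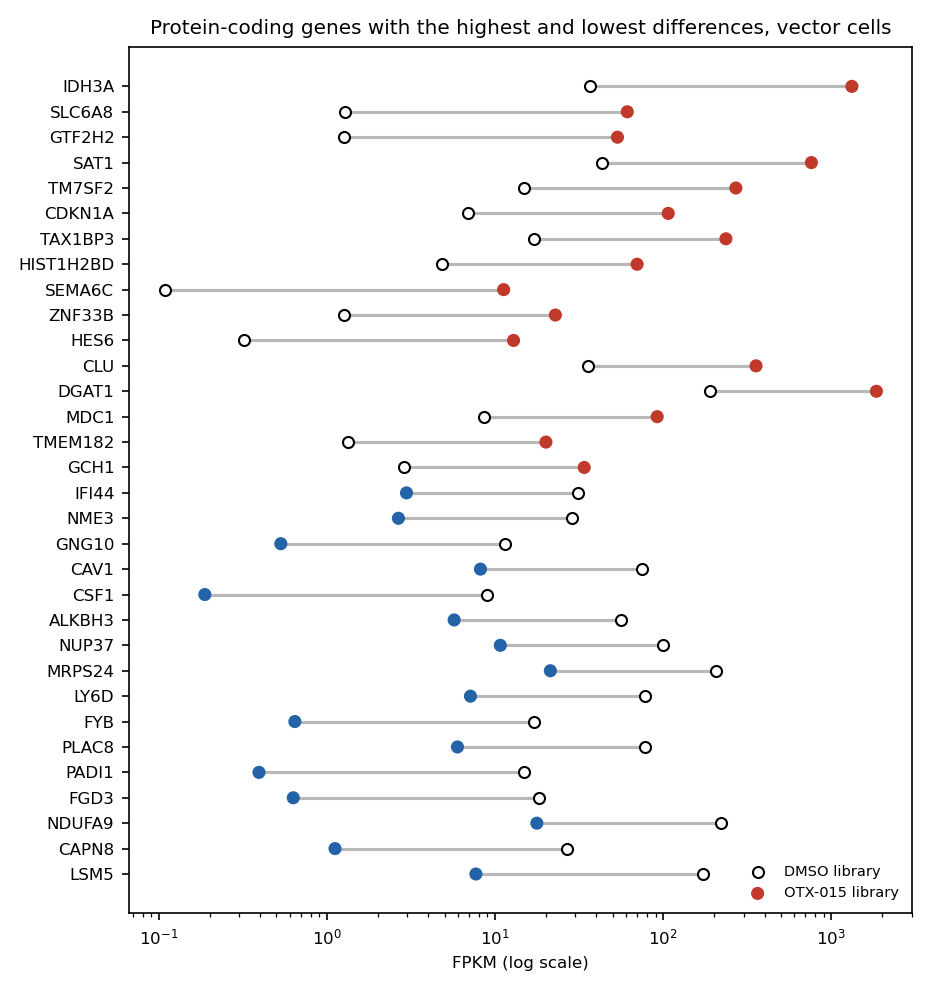
FPKM on a log axis in the DMSO library (open circles) and the OTX-015 library (filled circles) for the 16 protein-coding genes with the highest differences (red) and the 16 with the lowest (blue), among genes above 0 in both vector libraries. Each grey line joins the 2 libraries of 1 gene, from IDH3A at 36.4 and 1323 FPKM at the top to LSM5 at 172 and 7.68 at the bottom.

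The promoters of 4 of the genes and histones at the high end and 2 at the low end are shown so that the letters at the start of genes from both ends can be compared. Each runs 5′ to 3′ on the gene's own strand from 250 bases before to 50 bases after the start, from RefSeq (GRCh38.p14), where HIST1H2BD is listed as H2BC5 and HIST1H1C as H1-2. Capitals mark matches on either strand to 3 motifs. The TATA box was searched as TATAAA. The CCAAT box was searched as the letters of its name. The GC box was searched as GGGCGG, and its matches can overlap each other.
SAT1, chrX:23782923-23783222, plus strand: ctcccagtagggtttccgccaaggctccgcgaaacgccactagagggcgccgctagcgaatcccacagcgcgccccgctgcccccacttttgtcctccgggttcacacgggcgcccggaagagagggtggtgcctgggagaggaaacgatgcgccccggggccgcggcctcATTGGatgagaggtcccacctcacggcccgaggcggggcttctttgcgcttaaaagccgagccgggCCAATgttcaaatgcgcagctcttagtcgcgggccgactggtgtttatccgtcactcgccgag
CDKN1A, chr6:36678464-36678763, plus strand: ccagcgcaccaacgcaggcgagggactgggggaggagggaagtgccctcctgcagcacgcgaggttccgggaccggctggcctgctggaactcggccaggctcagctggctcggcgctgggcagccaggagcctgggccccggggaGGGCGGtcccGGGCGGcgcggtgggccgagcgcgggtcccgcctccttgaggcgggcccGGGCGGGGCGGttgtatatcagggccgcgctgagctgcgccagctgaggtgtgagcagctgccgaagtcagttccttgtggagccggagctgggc
HIST1H2BD, chr6:26157871-26158170, plus strand: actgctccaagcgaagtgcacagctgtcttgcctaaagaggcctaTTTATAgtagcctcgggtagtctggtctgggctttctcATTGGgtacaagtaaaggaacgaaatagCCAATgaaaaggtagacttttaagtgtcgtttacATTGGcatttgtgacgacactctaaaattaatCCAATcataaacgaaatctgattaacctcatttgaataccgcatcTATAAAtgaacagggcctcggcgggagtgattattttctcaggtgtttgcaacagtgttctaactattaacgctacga
HIST1H1C, chr6:26056421-26056720, minus strand: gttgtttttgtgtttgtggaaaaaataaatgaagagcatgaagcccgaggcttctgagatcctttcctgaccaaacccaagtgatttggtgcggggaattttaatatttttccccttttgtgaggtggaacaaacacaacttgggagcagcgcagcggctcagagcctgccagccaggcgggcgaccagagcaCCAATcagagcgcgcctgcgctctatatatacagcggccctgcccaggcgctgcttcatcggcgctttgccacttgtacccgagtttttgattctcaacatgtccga
LSM5, chr7:32490331-32490630, minus strand: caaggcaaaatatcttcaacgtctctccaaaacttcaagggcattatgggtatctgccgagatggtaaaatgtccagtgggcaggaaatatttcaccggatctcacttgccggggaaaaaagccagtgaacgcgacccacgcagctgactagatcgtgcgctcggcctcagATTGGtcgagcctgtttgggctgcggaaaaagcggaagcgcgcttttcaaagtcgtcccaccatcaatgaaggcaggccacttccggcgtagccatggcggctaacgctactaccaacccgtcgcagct
CAV1, chr7:116524759-116525058, plus strand: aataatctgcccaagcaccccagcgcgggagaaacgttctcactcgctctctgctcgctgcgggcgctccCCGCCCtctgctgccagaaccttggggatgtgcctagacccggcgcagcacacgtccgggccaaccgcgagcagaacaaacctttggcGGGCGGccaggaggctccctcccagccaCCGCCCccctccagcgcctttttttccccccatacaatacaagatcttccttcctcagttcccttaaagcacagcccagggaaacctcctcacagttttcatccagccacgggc

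SAT1 and LSM5 hold CCAAT boxes and CDKN1A and CAV1 hold GC boxes, so neither motif parted these high genes from these low ones. Both histone promoters hold at least 1 CCAAT box and no GC box. A promoter was found for 7764 of the 11376 genes, and the first was used where RefSeq gives several. The GC box was in 72.4% of these promoters, in 77.7% of those of the 1070 higher genes and in 61.7% of those of the 872 lower genes. The CCAAT box was in 37.6%, 42.4% and 33.0%, and the TATA box in 5.15%, 6.92% and 6.88%. Over all 27305 promoters of the table the shares were 44.6% for the GC box, 35.7% for the CCAAT box and 12% for the TATA box. A match describes these letters only.

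The gene lists are given by the number of members kept, the number higher and lower, and the median difference, beside 14.9% higher, 12.2% lower and a median of 0.10 for all genes kept. With both libraries scaled to the same sum, p53 targets had 2 higher and 2 lower genes, the NRF2 list 5 and 3, the fatty acid list 5 and 1, the endoplasmic reticulum list 2 and 4, the glycolysis list 4 and 2, the cholesterol list 4 and 5 and the lysosome list 3 and 5, in place of the counts below. The same scaling gave 34 lower cytosolic ribosomal protein genes, 30 lower nuclear respiratory chain genes and 20 lower mitosis genes, with none higher. It gave 17 lower proteasome genes and 18 lower ribosome biogenesis genes, again with none higher. Over all genes it called 4.7% higher and 31.4% lower. The plot of lists shows every member kept.

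**Figure D3:**
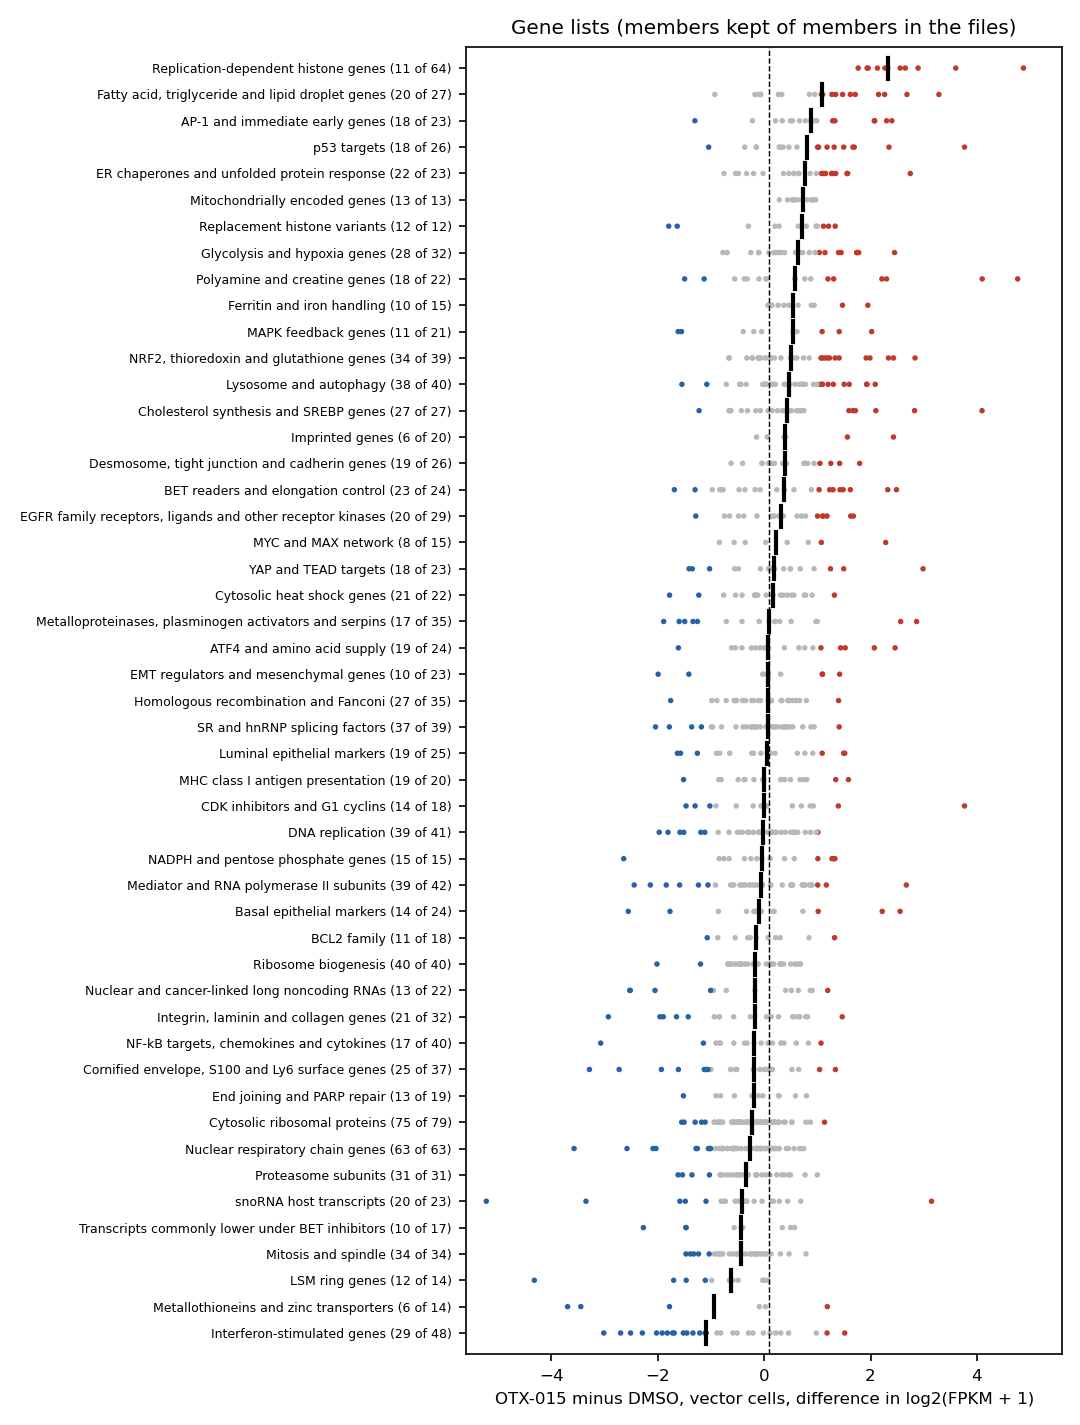
Difference between OTX-015 and DMSO in log2(FPKM + 1), vector cells, for every kept member (points) of 49 gene lists, with the list's median (black bar) and the number kept of the number in the files. Red points are at 1 or more, blue points at -1 or less, and the dashed line is the median of all genes, 0.10. Lists are sorted by this median, which the 5 FPKM rule can shift: 8 of the 11 histone genes were kept through OTX-015 alone and 11 of the 29 interferon-stimulated genes through DMSO alone.

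Of the BET and elongation list, 23 of 24 genes were kept, with 8 higher and 2 lower and a median of 0.38. Scaling to the same sum gave 2 higher and 8 lower with a median of -0.28, and leaving the 10 highest genes out of that sum gave 6 and 6. The 10 genes with an unshared locus had 2 higher, none lower and a median of 0.03, against 0.09 for all such genes. BRD2, one of the drug's own targets, was at 97.5 and 552 FPKM (difference 2.49). BRD3 was at 7.93 and 10.6 FPKM (difference 0.38), within 1 log2. Of the 7SK complex, HEXIM1 was higher, at 17.2 and 54.8 FPKM (difference 1.62). MEPCE, which caps 7SK RNA, was also higher, at 9.07 and 22.7 FPKM (difference 1.23). LARP7, which binds its 3′ end, was lower, at 59.2 and 23.5 FPKM (difference -1.30), as was HEXIM2, at 14.6 and 3.84 FPKM (difference -1.69). HEXIM1 and HEXIM2 share a locus in the files with a clone-named gene.

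The P-TEFb kinase CDK9 was at 58.2 and 51.7 FPKM (difference -0.17), and its partner CCNT2 at 6.47 and 3.19 FPKM (difference -0.83). Scaffold and elongation genes of the super elongation complex were among the higher ones. AFF4 was at 10.8 and 58.0 FPKM (difference 2.32), AFF1 at 8.71 and 22.8 FPKM (difference 1.30) and ELL at 5.52 and 17.2 FPKM (difference 1.49), while ELL2 was at 5.94 and 9.24 FPKM (difference 0.56). CDK13, a kinase of the polymerase tail, was at 4.20 and 13 FPKM (difference 1.43), and its relative CDK12 at 11.1 and 14.7 FPKM (difference 0.38), with their cyclin CCNK at 92.5 and 71.9 FPKM (difference -0.36). SUPT6H was at 20.3 and 42.6 FPKM (difference 1.03), SUPT5H at 181 and 335 FPKM (difference 0.89) and SUPT4H1 at 107 and 101 FPKM (difference -0.08). The 4 subunits of the pausing factor NELF were all between -1 and 0, with NELFCD at -0.97, NELFE at -0.81, NELFA at -0.77 and NELFB at -0.47.

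Of 42 Mediator and RNA polymerase II genes, 39 were kept, with 3 higher, 6 lower and a median of -0.06. The largest polymerase subunit, POLR2A, was at 14.4 and 97.1 FPKM (difference 2.67). POLR2L was at 181 and 409 FPKM (difference 1.17) and POLR2B at 78.1 and 158 FPKM (difference 1.01). The 3 lowest genes of the list were Mediator subunits. MED12, which belongs to the kinase module, was at 6.41 and 0.362 FPKM (difference -2.44), and MED24 was at 45.1 and 9.47 FPKM (difference -2.14). MED30 was at 35.3 and 9.14 FPKM (difference -1.84).

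Among 17 transcripts that BET inhibitors commonly lower, 10 were kept, with 3 lower, none higher and a median of -0.43. MYC itself was at 27.4 and 18.2 FPKM (difference -0.56), within 1 log2. HMGA2, a chromatin protein of embryonic and tumour cells, was at 12.5 and 1.80 FPKM (difference -2.27). CCND1, which encodes cyclin D1, was at 93.0 and 33.0 FPKM (difference -1.47), and the mitotic transcription factor FOXM1 was at 58.8 and 20.6 FPKM (difference -1.47). EZH2, the histone H3 methyltransferase, was at 23.2 and 34.9 FPKM (difference 0.57). In the MYC and MAX network, 8 of 15 genes were kept, with 2 higher, none lower and a median of 0.23. With a filter of 20 FPKM, 5 genes had none higher or lower and a median of -0.36, against 0.11 for all genes. With a filter of 1 FPKM, 13 genes had 3 higher, 1 lower and a median of 0.03, against 0.06. MXD4, a repressor that competes with MYC for MAX, was at 2.68 and 17.0 FPKM (difference 2.29), and MAX was at 20.6 and 37.4 FPKM (difference 0.83).

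Of the replication-dependent histone genes, 11 of 64 were kept, and 11 were higher, with a median of 2.33. Only 3 of them reached 5 FPKM in both libraries, and 8 were kept through OTX-015 alone, so for those 8 a difference was favoured by the rule. Over all 64 genes, 18 were higher, 1 was lower and 25 were listed at 0 in both libraries, and the median was 0.00. HIST1H1C, a linker histone, was at 8.47 and 69.4 FPKM (difference 2.89). HIST1H2BD was at 4.83 and 69.8 FPKM (difference 3.60), HIST1H2AC at 7.67 and 37.0 FPKM (difference 2.13) and HIST1H4H at 0.617 and 9.18 FPKM (difference 2.65). HIST1H2AL was listed at 0 under DMSO and at 28.4 FPKM under OTX-015. Most messenger RNAs of these genes end in a stem-loop without a poly(A) tail, and the libraries were made from poly(A)-selected RNA, so the values cover only the part that this selection took. Of the promoters of the 11 genes, 10 hold a CCAAT box, 7 a TATA box and 0 a GC box. Of the promoters shown above, that of HIST1H2BD holds CCAAT and TATA boxes and that of HIST1H1C a CCAAT box only.

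The 12 replacement variants, whose transcripts are polyadenylated, were all kept, with 3 higher, 2 lower and a median of 0.72. H2AFX, the variant phosphorylated at DNA breaks, was at 27.8 and 71.8 FPKM (difference 1.34). CENPA, the histone of centromeres, was at 31.4 and 8.36 FPKM (difference -1.79).

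Cell cycle genes lay at both ends. Of 26 p53 targets, 18 were kept, with 9 higher, 1 lower and a median of 0.81. Besides CDKN1A, RRM2B, the ribonucleotide reductase subunit for repair, was at 5.38 and 31.5 FPKM (difference 2.35). SFN, the 14-3-3 sigma protein of epithelium, was at 113 and 368 FPKM (difference 1.69). FDXR, a mitochondrial reductase, was at 9.65 and 32.9 FPKM (difference 1.67). MDM2, a defining target of p53, was at 18.1 and 16.3 FPKM (difference -0.15), BAX at 149 and 135 FPKM (difference -0.15), and the death receptor FAS at 7.17 and 2.96 FPKM (difference -1.04).

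Among 18 CDK inhibitors and G1 cyclins, 14 were kept, with 2 higher, 3 lower and a median of -0.01. CCNE2, a cyclin of S phase entry, was at 28.9 and 77.7 FPKM (difference 1.39). CDKN2A was at 92.0 and 36.8 FPKM (difference -1.30) and CDKN1B, which encodes p27, at 11.6 and 5.71 FPKM (difference -0.91). The 34 mitosis and spindle genes were all at 5 FPKM or more in both libraries, with none higher, 5 lower and a median of -0.43. CCNA2, the S and G2 cyclin, was at 32.1 and 11.6 FPKM (difference -1.39), NDC80 of the kinetochore at 67.2 and 26.2 FPKM (difference -1.32), and CENPE at 15 and 26.6 FPKM (difference 0.79).

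Of 41 DNA replication genes, 39 were kept, with 1 higher, 6 lower and a median of -0.03. POLE2, a subunit of DNA polymerase epsilon, was at 45.6 and 10.9 FPKM (difference -1.97). MCM5 of the replicative helicase was at 205 and 57.8 FPKM (difference -1.81), and thymidine kinase TK1 at 182 and 359 FPKM (difference 0.98). Homologous recombination is the repair pathway that BRCA1 serves. Of 35 of its genes and those of the Fanconi pathway, 27 were kept, with 1 higher, 1 lower and a median of 0.08. FANCD2 was at 85.4 and 24.5 FPKM (difference -1.76) and FANCM at 1.46 and 5.47 FPKM (difference 1.40). BARD1, the obligate partner of BRCA1, was at 11.6 and 5.38 FPKM (difference -0.99), and PALB2, which links BRCA1 to BRCA2, at 5.21 and 9.77 FPKM (difference 0.79). Of 19 end joining and PARP repair genes, 13 were kept, with none higher and 1 lower. That gene was XRCC1, the scaffold of single-strand break repair, at 60.8 and 20.6 FPKM (difference -1.52), while PARP1 was at 68.2 and 119 FPKM (difference 0.80). In the BCL2 family, 11 of 18 genes were kept, with BCL2L11, which encodes the killer protein BIM, at 2.24 and 7.12 FPKM (difference 1.32), BAD at 53.6 and 25.0 FPKM (difference -1.07) and the survival protein MCL1 at 18.0 and 33.1 FPKM (difference 0.84).

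Of 39 NRF2, thioredoxin and glutathione genes, 34 were kept, with 12 higher, none lower and a median of 0.50. Of the 34, 3 were kept through OTX-015 alone, HMOX1 and ARRDC4 among them, so for those 3 a higher value was favoured by the rule. With a filter of 20 FPKM, 29 genes gave 9 higher, none lower and a median of 0.32, against 0.11 for all genes. Over all 39 genes 12 were higher and 1 was lower, with a median of 0.19, against 0.00. GCLC, the catalytic subunit for the first step of glutathione synthesis, was at 25.4 and 141 FPKM (difference 2.43). TXNRD1, the cytosolic thioredoxin reductase, was at 259 and 1032 FPKM (difference 1.99). HMOX1, which breaks down haem, was at 4.06 and 24.6 FPKM (difference 2.34), and AKR1C2 was at 13.5 and 8.16 FPKM (difference -0.66). ARRDC4, an arrestin-like protein of the TXNIP family, was at 1.62 and 17.7 FPKM (difference 2.84). Of 15 genes supplying NADPH, 15 were kept, with 4 higher, 1 lower and a median of -0.04. PGD of the pentose phosphate pathway was at 107 and 271 FPKM (difference 1.33), and the mitochondrial malic enzyme ME3 was at 9.33 and 0.657 FPKM (difference -2.64).

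Of 15 iron genes, 10 were kept, with 2 higher, none lower and a median of 0.55. TFRC, the transferrin receptor that takes up iron, was at 1058 and 4090 FPKM (difference 1.95). FTL was at 645 and 1793 FPKM (difference 1.47), in the locus of the clone-named entry given above, and the ferritin heavy chain FTH1 at 972 and 1078 FPKM (difference 0.15). Metallothioneins, small proteins that bind zinc and copper, lay the other way. Of 14 genes of these and of zinc transporters, 6 were kept, with 1 higher, 3 lower and a median of -0.93, while the 3 that reached 5 FPKM in both libraries had 1 lower and a median of -0.09. MT2A was at 87.7 and 24.8 FPKM (difference -1.78), and MT1X and MT1E were listed at 0 under OTX-015, as given above. MTF1, the zinc-sensing factor that drives metallothionein genes, was at 1.67 and 5.08 FPKM (difference 1.19).

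Of 22 polyamine and creatine genes, 18 were kept, with 6 higher, 2 lower and a median of 0.58. Besides SLC6A8 and SAT1, GATM, the first enzyme of creatine synthesis, was at 2.31 and 15.3 FPKM (difference 2.30). CKB, brain-type creatine kinase, was at 23.5 and 113 FPKM (difference 2.21). DOHH, which completes the hypusine of the polyamine-dependent factor EIF5A, was at 10.1 and 2.95 FPKM (difference -1.49), and SAT2, a relative of SAT1, at 43.8 and 19.5 FPKM (difference -1.13).

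Of 27 fatty acid, triglyceride and lipid droplet genes, 20 were kept, with 11 higher, none lower and a median of 1.09. LPIN1, which makes the diacylglycerol that DGAT1 uses, was at 3.93 and 30.7 FPKM (difference 2.68). PNPLA2, the lipase that opens triglyceride stores, was at 109 and 526 FPKM (difference 2.27), so enzymes of both making and breaking triglyceride were higher. FASN, fatty acid synthase, was at 49.4 and 223 FPKM (difference 2.15), and the desaturase FADS1 was at 173 and 90.5 FPKM (difference -0.93). All 27 cholesterol and SREBP genes were kept, with 6 higher, 1 lower and a median of 0.43. INSIG1, which holds SREBP in the endoplasmic reticulum, was at 32.1 and 234 FPKM (difference 2.83). INSIG2, its relative, was at 34.2 and 14.1 FPKM (difference -1.22).

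Of 32 glycolysis and hypoxia genes, 28 were kept, all at 5 FPKM or more in both libraries, with 8 higher, none lower and a median of 0.63. ADM, the peptide adrenomedullin, was at 12.7 and 74.1 FPKM (difference 2.45). P4HA1, a collagen prolyl hydroxylase, was at 29.7 and 104 FPKM (difference 1.78), and the lactate exporter SLC16A3 at 57.1 and 194 FPKM (difference 1.74). HK2, a first-step enzyme, was at 8.52 and 7.85 FPKM (difference -0.10).

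Among 23 endoplasmic reticulum chaperones and unfolded protein response genes, 22 were kept, with 9 higher, none lower and a median of 0.76. ERN1, which encodes the stress sensor IRE1, was at 0.614 and 9.85 FPKM (difference 2.75). CALR, the chaperone calreticulin, was at 572 and 1456 FPKM (difference 1.35), and SEL1L, of the degradation channel, at 14.1 and 43.9 FPKM (difference 1.57). DDIT3, which encodes CHOP, was at 22.4 and 15.1 FPKM (difference -0.54). Of 24 ATF4 and amino acid genes, 19 were kept, with 5 higher, 1 lower and a median of 0.08. The glutamine carrier SLC1A5 was at 73.7 and 411 FPKM (difference 2.46), ATF3 at 1.64 and 10.1 FPKM (difference 2.07), and the pseudokinase TRIB3 at 27.5 and 8.32 FPKM (difference -1.61).

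Of the 22 genes in the cytosolic heat shock list, 21 were kept, with 1 higher (DNAJB1, 108 and 271 FPKM, difference 1.32), 2 lower and a median of 0.17. The lower genes were HSPE1 at 274 and 79.1 FPKM (difference -1.78) and HSPB1 at 111 and 46.6 FPKM (difference -1.23). The protein of HSPE1 is mitochondrial and not cytosolic, in spite of the name of the list. Of 40 lysosome and autophagy genes, 38 were kept, with 10 higher, 2 lower and a median of 0.47. NEU1, the lysosomal sialidase, was at 12.9 and 58.2 FPKM (difference 2.09). MCOLN1, the lysosomal calcium channel, was at 9.83 and 40.2 FPKM (difference 1.93), and ATG5, needed to form autophagosomes, at 61.5 and 20.4 FPKM (difference -1.55).

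Of 48 interferon-stimulated genes, 29 were kept, with 2 higher, 15 lower and a median of -1.09. Of the 29, 11 were kept through DMSO alone, so for those 11 a lower value was favoured by the rule. The 18 that reached 5 FPKM in both libraries had 2 higher, 4 lower and a median of -0.25. With a filter of 20 FPKM, 12 genes gave 2 higher, 4 lower and a median of -0.15, and over all 48 genes 21 were lower, with a median of -0.75. BST2, which tethers virus particles to the cell, was at 246 and 49.6 FPKM (difference -2.29). IFIT1, which binds foreign RNA, was at 10.2 and 0.720 FPKM (difference -2.70), and EPSTI1 at 6.78 and 0.365 FPKM (difference -2.51). At the other end of the list, STAT2, a signalling factor of the same pathway, was at 11.2 and 26.7 FPKM (difference 1.18). IFI30, a lysosomal reductase, was at 110 and 315 FPKM (difference 1.51).

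Of 20 genes of antigen presentation on MHC class I, 19 were kept, with 2 higher, 1 lower and a median of 0.00. PSMB8, an immunoproteasome subunit, was at 33.0 and 10.9 FPKM (difference -1.51), and HLA-E, a ligand of receptors on natural killer cells, was at 22.3 and 68.9 FPKM (difference 1.58). Of 40 NF-kB targets, chemokines and cytokines, 17 were kept, with 1 higher, 2 lower and a median of -0.19. SOD2, the mitochondrial superoxide dismutase, was at 63.6 and 135 FPKM (difference 1.07), and BIRC3 at 6.75 and 2.51 FPKM (difference -1.14).

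Of 23 AP-1 and immediate early genes, 18 were kept, 5 of them through OTX-015 alone, with 6 higher, 1 lower and a median of 0.88. The 13 at 5 FPKM or more in both libraries had 2 higher, 1 lower and a median of 0.66. JUND was at 15.9 and 88.2 FPKM (difference 2.40) and FOS at 0.971 and 8.72 FPKM (difference 2.30), both subunits of AP-1. ZFP36, which marks short-lived messenger RNAs for decay, was at 3.16 and 16.6 FPKM (difference 2.08), and its relative ZFP36L1 at 28.1 and 10.8 FPKM (difference -1.30). Of 21 MAPK feedback genes, 11 were kept, with 3 higher, 2 lower and a median of 0.54. This median depended on the filter. It was -0.02 at 1 FPKM, against 0.06 for all genes, and -0.20 over all 21 genes, against 0.00. The phosphatase DUSP1 was at 4.83 and 22.7 FPKM (difference 2.02), and the transcription factor ETV4 at 27.5 and 8.29 FPKM (difference -1.62).

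Of 23 YAP and TEAD targets, 18 were kept, with 3 higher, 3 lower and a median of 0.19. CTGF, a secreted matrix protein, was at 2.13 and 23.8 FPKM (difference 2.99), and YAP1 itself at 17.7 and 6.03 FPKM (difference -1.41). Of 29 growth factor receptors and ligands, 20 were kept, with 6 higher, 1 lower and a median of 0.32. HBEGF, a ligand of EGFR, was at 5.42 and 19.6 FPKM (difference 1.68), FGFR1 at 11.7 and 38.3 FPKM (difference 1.63), and PDGFB at 6.24 and 1.97 FPKM (difference -1.28).

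Epithelial keratins spread both ways. Among 24 basal markers, 14 were kept, with 3 higher, 2 lower and a median of -0.10. KRT17 was at 137 and 811 FPKM (difference 2.56) and KRT16 at 66.7 and 315 FPKM (difference 2.22), both keratins of stressed or basal epithelium. KRT15 was at 41.1 and 11.3 FPKM (difference -1.77) and S100A2 at 16.1 and 1.91 FPKM (difference -2.55). Among 25 luminal markers, 19 were kept, with 3 higher, 3 lower and a median of 0.06. KRT8, which pairs with KRT18 in simple epithelium, was at 8160 and 23339 FPKM (difference 1.52), and KRT18 at 349 and 744 FPKM (difference 1.09), but the files give both 1 locus, so reads may have been divided between them. ELF3, an epithelial transcription factor, was at 80.9 and 230 FPKM (difference 1.5), FOXA1 at 8.32 and 2.13 FPKM (difference -1.57), and AGR2 at 159 and 50.6 FPKM (difference -1.63).

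Of 26 junction and cadherin genes, 19 were kept, with 4 higher, none lower and a median of 0.38. CLDN1, a tight junction protein, was at 19.7 and 70.8 FPKM (difference 1.80), and CDH1, which encodes E-cadherin, at 101 and 242 FPKM (difference 1.25). Of 37 cornified envelope, S100 and Ly6 genes, 25 were kept, with 2 higher, 7 lower and a median of -0.19. S100P was at 431 and 1093 FPKM (difference 1.34) and S100A4 at 85.3 and 21.6 FPKM (difference -1.93). Of 32 integrin, laminin and collagen genes, 21 were kept, with 1 higher, 5 lower and a median of -0.18. The fibrillar collagen COL5A2 was at 61.7 and 7.24 FPKM (difference -2.93), COL4A2 of basement membrane at 32.2 and 7.92 FPKM (difference -1.90), and the laminin-binding integrin ITGA3 at 332 and 921 FPKM (difference 1.47). Of 35 proteases and serpins, 17 were kept, with 2 higher, 5 lower and a median of 0.09, among them the plasminogen activators PLAT at 8.80 and 1.65 FPKM (difference -1.89) and PLAU at 15.9 and 5.68 FPKM (difference -1.34). Of 23 mesenchymal genes, 10 were kept, with 3 higher and 2 lower, fibronectin FN1 being at 2.48 and 8.30 FPKM (difference 1.42) and INHBA at 8.23 and 1.32 FPKM (difference -1.99).

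Genes of protein synthesis, respiration and protein breakdown are given next. Of 79 cytosolic ribosomal proteins, 75 were kept, with 1 higher, 5 lower and a median of -0.24. RPL37 was at 304 and 103 FPKM (difference -1.55), RPL34 at 90.3 and 31.2 FPKM (difference -1.5) and RPL28 at 3129 and 5390 FPKM (difference 0.78). All 63 nuclear genes of the respiratory chain were kept, with none higher, 9 lower and a median of -0.26. NDUFC1 of complex I was at 208 and 34.0 FPKM (difference -2.58) and NDUFB6 at 107 and 25.4 FPKM (difference -2.03), next to NDUFA9 above. ATP5G2 of ATP synthase was at 128 and 29.3 FPKM (difference -2.09), and SDHA of complex II at 191 and 308 FPKM (difference 0.69). The 13 genes encoded in mitochondrial DNA lay between 0.29 for MT-CYB and 0.97 for MT-ND1, with a median of 0.72 and none past 1 log2.

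All 31 proteasome genes were kept, with none higher, 4 lower and a median of -0.34. PSMC3 was at 265 and 103 FPKM (difference -1.36), PSMC6 at 18.3 and 5.30 FPKM (difference -1.62) and PSMD2 at 295 and 504 FPKM (difference 0.77). Of 14 LSM genes, 12 were kept, with none higher, 4 lower and a median of -0.62. LSM3 was at 32.3 and 9.25 FPKM (difference -1.70) and LSM7 at 112 and 40.0 FPKM (difference -1.47), both in the same ring as LSM5, while LSM4 of that ring was at 141 and 142 FPKM (difference 0.01). The 40 ribosome biogenesis genes were all kept, with none higher, 2 lower (WDR12 at 113 and 27.1 FPKM, difference -2.02, and RRS1 at 23.5 and 9.69 FPKM, difference -1.20) and a median of -0.16.

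Across all protein-coding genes the difference moved with transcript length. Protein-coding genes whose longest annotated transcript is under 1000 nt had a median difference of -0.20, with 13.9% higher and 19.2% lower. From 1000 to under 2000 nt the median was -0.11, from 2000 to under 4000 nt 0.09, and from 4000 to under 8000 nt 0.18. At 8000 nt or more it was 0.32, with 20.3% higher and 8.03% lower. The 72 short structural RNA genes kept were 29.2% higher and 50% lower, with a median of -1.10. The lists above did not follow this order throughout. The median longest transcript was 784 nt for the mitochondrially encoded genes (median difference 0.72), 1872 nt for ribosomal proteins (-0.24), 1584 nt for respiratory chain genes (-0.26), 2083 nt for LSM genes (-0.62), 2586 nt for proteasome genes (-0.34) and 3549 nt for ribosome biogenesis genes (-0.16). The part of transcript length in these medians was not tested.

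**Figure D4:**
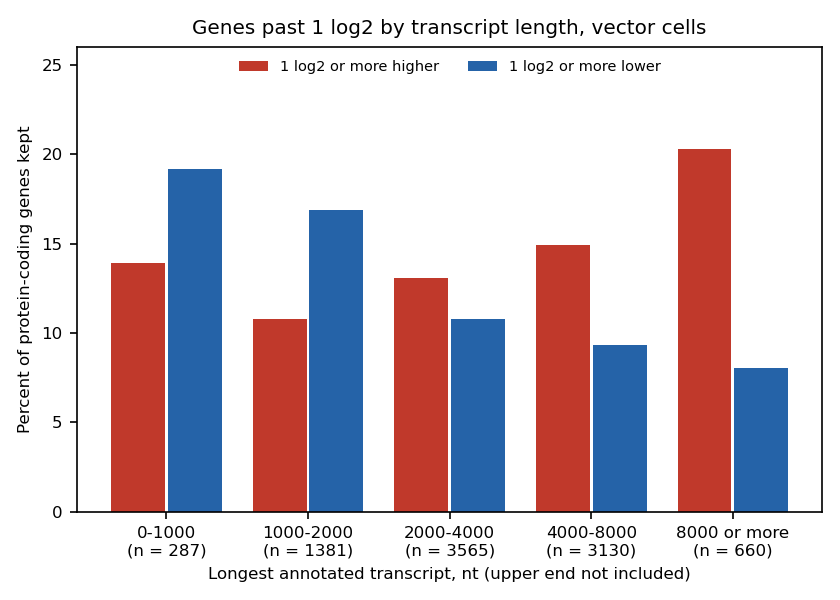
Percent of protein-coding genes kept that were at least 1 log2 higher (red) or lower (blue) under OTX-015 in vector cells, by length of the longest annotated transcript in nt, with the number of genes under each class. The lower share goes from 19.2% in the shortest class to 8.03% in the longest, and the higher share is 13.9% and 20.3% in these classes.

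Of 39 splicing factors of the SR and hnRNP families, 37 were kept, all at 5 FPKM or more in both libraries, with 1 higher, 4 lower and a median of 0.07. HNRNPD, also known as AUF1, was at 209 and 49.9 FPKM (difference -2.04), its relative HNRNPDL at 128 and 36.4 FPKM (difference -1.78), and TRA2B at 145 and 388 FPKM (difference 1.41). Of 23 snoRNA host transcripts, 20 were kept, with 1 higher, 5 lower and a median of -0.41. Of the 20, 15 reached 5 FPKM in both libraries, while 4 were kept through DMSO alone and 1 through OTX-015 alone. For the 4 a lower value was favoured by the rule, and for the 1 a higher value. With a filter of 20 FPKM, 17 genes gave 1 higher, 4 lower and a median of -0.35. The 3 genes named next each reached 5 FPKM in only 1 library. SNHG3 was at 54.7 and 4.46 FPKM (difference -3.35), SNHG25 was listed at 0 under OTX-015 and 36.4 FPKM under DMSO, and SNHG9 was at 3.97 and 43.1 FPKM (difference 3.15). Of 22 long noncoding RNAs, 13 were kept, with 1 higher, 4 lower and a median of -0.17. PVT1, the neighbour of MYC, was at 47.7 and 7.52 FPKM (difference -2.52), MIR205HG, host of a microRNA of basal epithelium, at 8.04 and 0.567 FPKM (difference -2.53), and NEAT1, the RNA scaffold of paraspeckles, at 18.5 and 43.7 FPKM (difference 1.20). Of 20 imprinted genes, 6 were kept, with 2 higher, PEG10 at 77.1 and 421 FPKM (difference 2.43) and PHLDA2 at 10.6 and 33.2 FPKM (difference 1.57).

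The wtBRCA1 cells under the same agents give a second pair of libraries that shares none with the vector pair. Over the same 11376 genes, 1491 were higher in wtBRCA1 cells (13.1%) and 1296 were lower (11.4%). Of the 1690 genes higher in vector cells, 698 (41.3%) were also higher in wtBRCA1 cells, which is 46.8% of the genes higher there, and 61 (3.61%) were lower. Of the 1390 lower genes, 565 (40.6%) were lower in both, which is 43.6% of the genes lower in wtBRCA1 cells, and 47 (3.38%) were higher. Across genes, which are not independent replicates, Pearson's r of the differences was 0.44 and Spearman's rho 0.54 over 11376 genes. The difference between the responses of the lines was not tested, as each has 1 library per treatment.

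**Figure D5:**
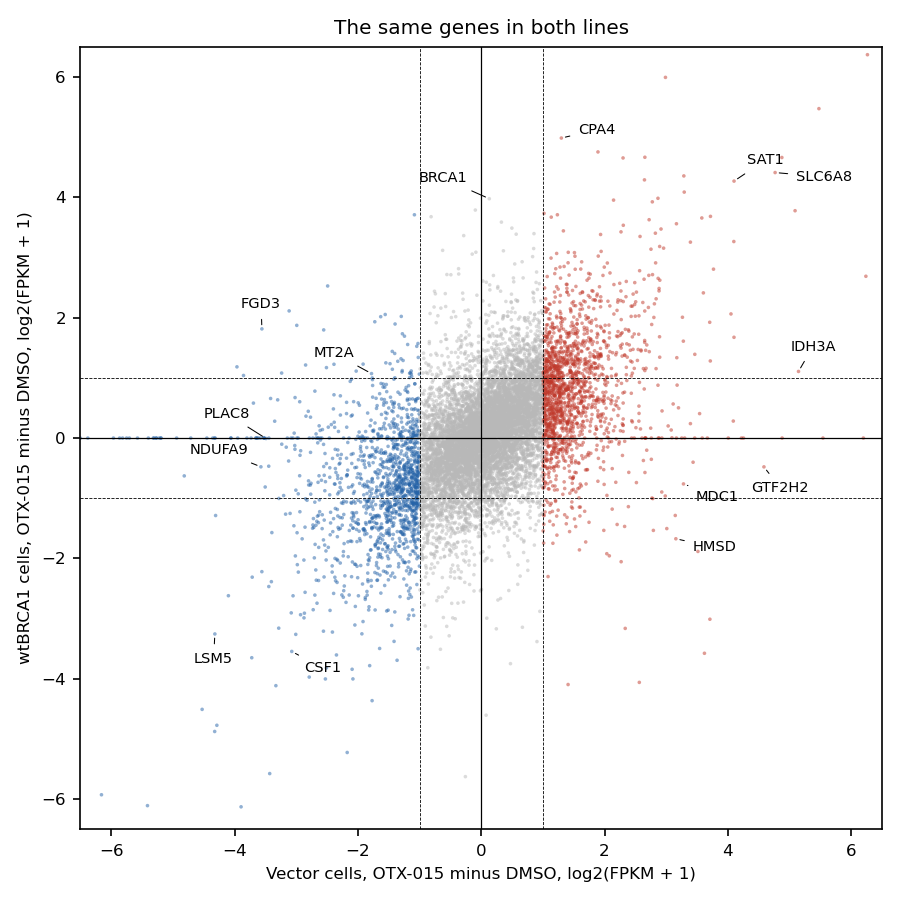
Difference between OTX-015 and DMSO in log2(FPKM + 1) for the same genes in vector cells (x axis) and wtBRCA1 cells (y axis), with dashed lines at 1 and -1. Red and blue mark the genes higher and lower in vector cells. SAT1 and SLC6A8 stand high in both lines and LSM5 and CSF1 low in both, while FGD3 and HMSD lie in opposite corners, and 28 genes fall outside the plotted range of 6.5 log2.

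Many of the leading genes were past 1 log2 in the same direction in both lines. SAT1 had a difference of 4.10 in vector cells and 4.27 in wtBRCA1 cells. SLC6A8 stood at 4.77 and 4.41, CDKN1A at 3.77 and 2.81, and BRD2 at 2.49 and 2.22. HEXIM1 was at 1.62 and 1.45, with LARP7 at -1.30 and -1.29 and HEXIM2 at -1.69 and -1.72. At the low end LSM5 was at -4.32 and -3.26, CAV1 at -3.05 and -2.62, and LY6D at -3.28 and -3.16. The histone gene HIST1H1C was at 2.89 and 3.18, and HIST1H2AC at 2.13 and 1.42. Of the interferon-stimulated genes, BST2 was at -2.29 and -1.32 and IFI44 at -3.01 and -1.96.

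Other values lay further apart between the lines, or passed 1 log2 in only 1 line. IDH3A had a difference of 5.15 in vector cells and 1.11 in wtBRCA1 cells, where it was at 75.3 and 163 FPKM. MDC1 stood at 122 and 71.4 FPKM in wtBRCA1 cells, against 8.57 and 91.9 in the vector pair, so the vector DMSO library was the low one of the 4. NDUFA9 stood at 205 and 147 FPKM in wtBRCA1 cells, against 222 and 17.7 in the vector pair, and only the vector OTX-015 library was low. PLAC8 was at 0.996 and 0.986 FPKM in wtBRCA1 cells, under its level of 77.3 and 5.97 in vector cells. ELL, at 1.49 in vector cells, had a difference of -0.04 in wtBRCA1 cells, and AFF4 stood at 2.32 and 0.76. KRT17 had a difference of 2.56 in vector cells and 0.28 in wtBRCA1 cells. MYC had negative differences in both lines, -0.56 in vector cells and -1.13 in wtBRCA1 cells, and passed 1 log2 in the latter only.

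The most extreme genes for the vector difference minus the wtBRCA1 difference, among genes above 0 in all 4 libraries, were GTF2H2 (5.06), HMSD (4.83), LGALS9 (4.29), CKLF-CMTM1 (4.22), MDC1 (4.04), IDH3A (4.04), ZNF738 (4.04) and TEN1 (3.96). At the other end stood FGD3 (-5.37), GPN2 (-4.79), BRCA1 (-3.85), EIF5A2 (-3.75), NME3 (-3.69), CPA4 (-3.69), UBXN8 (-3.68) and CNIH1 (-3.66). LGALS9, a galectin, stood at 77.1 and 6.49 FPKM in wtBRCA1 cells, against 3.49 and 7.40 in the vector pair. CPA4, a carboxypeptidase, was higher in both lines, with 9.69 and 25.3 FPKM in the vector pair and 13.8 and 468 in the wtBRCA1 pair.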

How the data were processed

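The 4 libraries, 1 for each line (HCC1937 vector or wtBRCA1) and agent (DMSO or OTX-015), come from poly(A)-selected RNA and a directional kit, per the labels' protocols. The deposited values are FPKM per gene, and the submitters' processing notes name TopHat2, Cufflinks and hg38. Tool versions, the annotation and whether libraries were scaled to each other are not given in the sources used here. As the files hold no counts, library depth is unknown and no counting interval could be given.

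Values were joined by gene identifier, and 56993 of 60487 identifiers were in GENCODE 29, which gave positions, biotypes and transcript lengths. Genes at 5 FPKM or more in either vector library were compared on log2(FPKM + 1), and a difference of 1 was the limit for higher or lower. With 1 library per group no test was made. The 49 gene lists and the members were chosen with earlier results of these data known, and 1401 of 1401 list symbols matched a gene in the files. Named genes are the 16 highest and 16 lowest protein-coding genes above 0 in both vector libraries, up to 6 each way at 0 in 1 of them, the BET list members, up to 4 members from each end of the other lists with the defining members of a role, the 10 highest levels and the 8 most extreme each way against wtBRCA1. A few list genes are counted but not reported here by name. The rules on differences passed over clone-named genes, short structural RNAs and genes of X inactivation or the Y chromosome. The code was checked on noise-free changes, larger than the limit, planted in the vector DMSO library. They were called after median-of-ratios scaling, which the differences given here do not use. As it held no noise, this check could not show how often a call is wrong. Alternatives covered the pseudocount, the filter, 4 scalings, summed symbols, gene classes and shared loci. Python 3.11.15, pandas 2.3.3, numpy 2.4.6 and matplotlib 3.10.9 were used.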

Additional observations from a re-analysis of the deposited data

Results flagged for a closer look

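For 13 of the genes named, the vector and wtBRCA1 pairs differed by at least 1 log2 in opposite directions between OTX-015 and DMSO. With 1 library per group the difference was not tested. The vector difference minus the wtBRCA1 difference was -5.37 for FGD3, -4.79 for GPN2, -3.68 for UBXN8, -3.66 for CNIH1, -3.65 for AGR2, -2.85 for MT2A, -2.38 for PDGFB and -2.15 for SAT2, all lower under OTX-015 in vector cells. It was 4.83 for HMSD, 4.43 for SNHG9, 4.04 for ZNF738, 3.96 for TEN1 and 2.13 for KRT6A, all higher under OTX-015 in vector cells. The levels of FGD3 were 18.2 and 0.629 FPKM in the vector pair and 1.22 and 6.81 FPKM in the wtBRCA1 pair. CNIH1, a cargo receptor of the secretory pathway, had 91.7 and 27.0 FPKM in the vector pair and 16.8 and 66.8 FPKM in the wtBRCA1 pair.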

How the results depend on the processing

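No paired analysis was possible because each group has 1 library and no test was made, and for the same reason no library could be left out. Against 1690 higher and 1390 lower genes, a pseudocount of 5 gave 1040 and 871 and a filter of 20 FPKM 975 and 728. A filter of 1 FPKM or none gave 2425 higher and 2390 lower genes. Scaling to the same sum gave 535 and 3574, and 1077 and 2002 with the 10 highest left out of the sum. Median-of-ratios scaling gave 1444 and 1572, and quantile normalization 1506 and 1513. Genes with an unshared locus gave 864 and 723. Settings chosen after seeing the data gave 1067 and 785 for genes at 5 FPKM or more in both libraries, and 1066 and 729 for protein-coding genes with a transcript of 2000 nt or more. These last 3 and the filter of 20 FPKM count fewer genes by construction. Over the 1108 genes that are in a list or named by another rule, the alternatives gave 15377 values, and 14745 stayed on their side of the 1 log2 limit. Among genes past the limit 278 values went under it, and among the others 353 passed it, in either direction. A change of direction was counted only for genes past the limit. It was seen for 1 value, RP5-940J5.9, at -1.29 under quantile normalization, and the cause was not tested. Filters, gene classes and the choice of unshared loci leave a gene's own value as it is. Those values stayed the same by construction, and summed symbols moved none across the limit. The 278 and the 353 all came under the pseudocounts and the scalings. Scaling to the same sum gave 101 of the 278 and 223 of the 353. The side on which a list's median lay against that of all genes turned under at least 1 setting for 16 of 49 lists, under a scaling only for ATF4, heat shock and homologous recombination genes, with quantile normalization.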
